A study of Gallus gallus with 4 samples.

Results

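Otic-epibranchial progenitors (OEPs) are ectodermal cells that give rise to the inner ear and to epibranchial neurons. They were dissected from untreated chick embryos of 8 to 9 somites, in approximately 200 pieces of tissue. This tissue was profiled by chromatin immunoprecipitation followed by sequencing (ChIPseq) for H3K27ac, H3K4me3 and H3K27me3. The regions described here are H3K27ac peaks on the numbered autosomes that shared at least 1 bp with an H3K27me3 peak and none with an H3K4me3 peak. There were 2456 such peaks among 43416 H3K27ac peaks on 32 numbered autosomes and 45426 in the whole list, or 5.66% of the autosomal peaks (exact Clopper-Pearson 95% interval 5.44 to 5.88). Each mark was represented by 1 library of pooled tissue and an input library was sequenced as well, so that no spread between embryos or immunoprecipitations was measured, the depth of the libraries is unknown and intervals cover counting error only. The members were chosen by the overlap of the same lists that are described here, and the values below are therefore descriptions without a test.

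Acetylation and trimethylation compete for lysine 27 of histone H3. Acetylation by p300 and CBP marks active enhancers and promoters, whereas trimethylation by the Polycomb repressive complex PRC2 marks silenced developmental genes, and a single histone tail cannot carry both at that residue. H3K4me3 marks promoters, and the regions described here share no base with an H3K4me3 peak, though some lie close to one. In bulk tissue, marks on the same nucleosome, on neighbouring nucleosomes, on different alleles or in different cells cannot be told apart. The dissected ectoderm may also hold cells of the adjoining neural plate and neural crest, which the peak lists do not separate. Gene names are not given, because an annotation of the assembly of the lists was not used here, and for the same reason the tissue label was not checked against marker genes.

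Overlap with H3K27me3 was found for 4055 autosomal H3K27ac peaks, or 9.34% of all of them. Among the 34272 H3K27ac peaks without H3K4me3 it was found for the 2456 members (7.17%), and among the 9144 with H3K4me3 for 1599 (17.5%). Nearly all members met a single H3K27me3 peak, 2446 of 2456, and the remaining 10 met 2. The 2466 overlapping pairs involved 2461 H3K27me3 peaks, of which 5 were shared by 2 members each. Most members thus had an H3K27me3 partner of their own. This is in part set by the lists. No other H3K27ac peak lay closer than 1006 bp to a member, and the partners had a median width of 455 bp.

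The extent of the overlap ran from 1 to 2091 bp, with a median of 289.5 bp (quartiles 237.75 and 499). As a share of the width of the H3K27ac peak, it ran from 0.243% to 100%, with a median of 65.9% (quartiles 26.4% and 95.6%). The shares were spread over the whole range, and the most members were found at its upper end. Up to 10% of the peak was overlapped in 188 members (7.65%), above 10% and up to 25% in 392 (16.0%), and above 25% and up to 50% in 448 (18.2%). At least 50% was overlapped in 1429 members (58.2%, interval 56.2 to 60.1) and at least 90% in 789 (32.1%). Summed over all members, H3K27me3 covered 992 of 2312 kb of H3K27ac, or 42.9%. The summed share was lower than the median share because wide peaks were overlapped over a smaller part of their width.

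**Figure D1:**
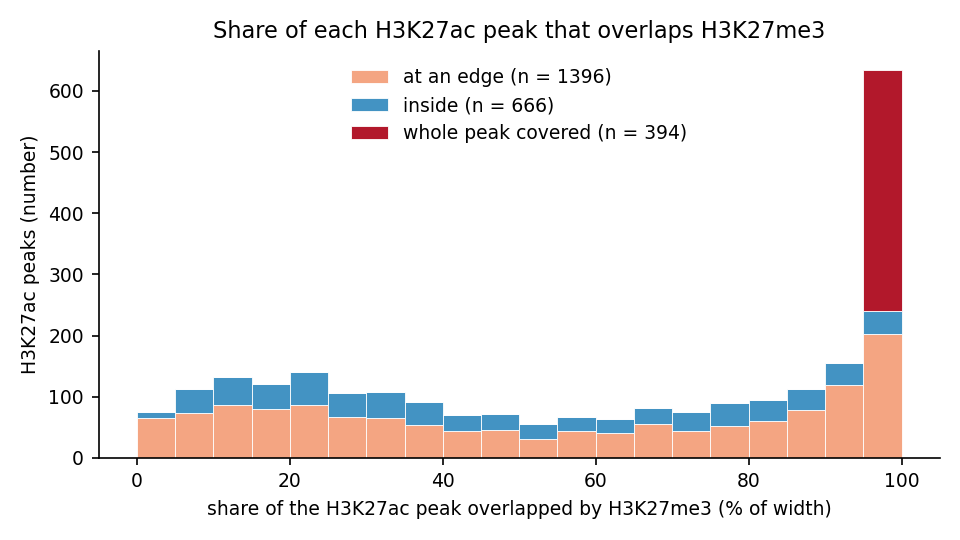
Histogram of the share of each H3K27ac peak that overlapped H3K27me3, in % of its width (bins of 5%), stacked by whether the overlap lay at an edge, inside or covered the whole peak. The highest bar is at the right, where 394 wholly covered peaks lie, and a lower, broad rise lies between 5% and 35%.

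The place of the overlap was classed by the ends of the H3K27ac peak. In 1396 members (56.8%, 54.9 to 58.8) the overlap lay at an edge, that is, H3K27me3 covered 1 end of the peak but not the whole. Inside overlaps, with both ends free, numbered 666 (27.1%, 25.4 to 28.9), and 394 members (16.0%, 14.6 to 17.6) lay wholly within a single H3K27me3 peak. Edges of lower and of higher coordinate were covered about equally often, 714 and 678 times, and in 4 members different H3K27me3 peaks covered both ends.

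Edge overlaps were shallow in bp and variable in share. Their median overlap was 255 bp (quartiles 178 and 373), and their median width was 653 bp. The median share overlapped was 54.9% (quartiles 22.3% and 88.6%), so that edge members included peaks covered over most of their width. A median of 218.5 bp of the H3K27ac peak was left free. Beyond the covered end, the H3K27me3 peak ran on for a median of 122 bp (quartiles 20 and 455). In 374 of 1400 such ends (26.7%) it stopped within 25 bp of the end of the H3K27ac peak. Edge overlaps thus included both peaks that were offset from each other and peaks whose ends almost coincided.

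Inside overlaps were found in the widest members, with a median width of 1086.5 bp, and involved the narrowest H3K27me3 peaks, with a median of 328.5 bp. The 670 H3K27me3 peaks inside H3K27ac peaks had a median of 33 bp of free H3K27ac on the shorter side and 468.5 bp on the longer side. The shorter side measured at most 25 bp in 310 and at most 100 bp in 446 (66.6%) of them. Many overlaps that were formally inside therefore lay close to an edge. Judged by the midpoint of the H3K27me3 peak, 264 (39.4%) lay in the central part of the H3K27ac peak. This part was at 40% to 50% of the width from the nearer end, and 36 (5.37%) lay within 10% of that end. A broad inside overlap has its midpoint near the centre by construction, and the median share overlapped in inside members was 45.1%. These midpoints are therefore in part set by the peak widths.

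Wholly covered members were narrow, with a median width of 346 bp, and lay in H3K27me3 peaks with a median width of 888.5 bp. H3K27me3 passed the nearer end of the H3K27ac peak by a median of 14.5 bp only. In 4 of these 394 members H3K27me3 reached at least 1 kb beyond both ends. Wholly covered members deep within long H3K27me3 peaks were thus few. Long H3K27me3 peaks were few in the whole list as well, with 1.10% of all autosomal ones at least 5 kb wide. Such a peak covered 9 of these 394 members. How far the list sets the count of 4 was not tested.

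**Figure D2:**
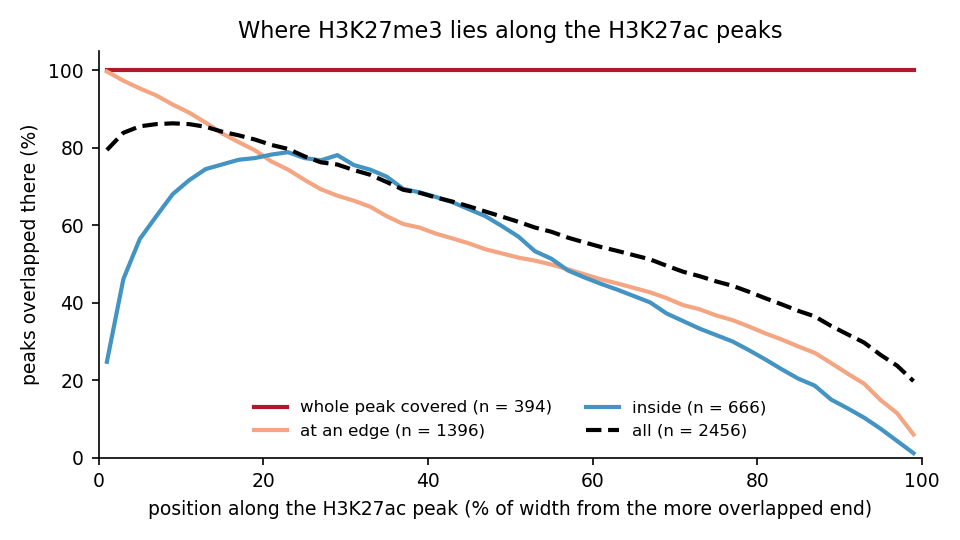
Percentage of H3K27ac peaks overlapped by H3K27me3 at each position along the peak, in % of the width, for overlaps at an edge, inside, covering the whole peak and for all 2456 peaks. Each peak was turned so that the middle of its overlap lies in the first part, which by construction makes all curves but that of whole peaks lower at the right. The edge curve falls throughout, and that of whole peaks stays at 100%. The inside curve rises from 24.8% at 1% of the width to 78.8% at 23% and then falls. That of all peaks rises from 79.4% to 86.3% at 9% and then falls. At 11% of the width, 89.0% of edge and 71.6% of inside overlaps were present, and at 89% of the width 24.4% and 15.0%.

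The place of the overlap changed with the width of the H3K27ac peak. When the members were ordered by width and cut into 4 sets of 614, the narrowest set, of 251 to 341 bp, differed most from the widest. In the narrowest set the median share overlapped was 94.9%, and 31.1% were wholly covered, 59.1% overlapped at an edge and 9.77% inside. In the widest set, of 1149 to 15743 bp, the median share was 21.6%, and 1.79% were wholly covered, 47.7% overlapped at an edge and 50.5% inside. The median overlap in bp differed less than the share, at 258, 312, 412 and 342 bp from the narrowest to the widest set. No H3K27me3 peak was narrower than 233 bp, so that members of 251 to 341 bp left little room for an inside overlap. The differences in place and share are therefore in part set by the peak widths.

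H3K27ac peaks with both other marks served as the nearest comparison. Their median share overlapped by H3K27me3 was 78.8%, against 65.9% in the members, and 405 of 1599 (25.3%, 23.2 to 27.5) were wholly covered, against 16.0%. Edge overlaps made up 48.5% (46.0 to 50.9) and inside overlaps 26.2% (24.1 to 28.4) of that class. The H3K27me3 peaks that covered whole H3K27ac peaks measured a median of 1272 bp in that class and 888.5 bp in the members. These values stand side by side and were not tested, since the classes were cut from the same lists.

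A minority of the ends of overlapping peaks fell at nearly the same base. Each of the 2466 pairs has 2 pairs of matching ends, 4932 in all. Of these, 841 (17.1%) lay within 10 bp of each other, 1263 (25.6%) within 25 bp and 2176 (44.1%) within 100 bp, and 99 were identical. By 10 bp steps, 452 H3K27me3 ends (9.16%) lay 0 to 9 bp inside the H3K27ac end, and 372 (7.54%) lay 1 to 10 bp outside. At 50 to 59 bp inside there were 61 (1.24%), and at 200 to 209 bp inside 23 (0.466%). A narrow maximum at a distance of 0 was thus present on a broad base. In the peaks with both marks, 18.3% of the H3K27me3 ends lay within 10 bp, and in H3K27ac peaks with H3K4me3 only, 14.7% of the H3K4me3 ends did. Close ends were accordingly seen between each pair of libraries compared, and their origin was not tested.

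**Figure D3:**
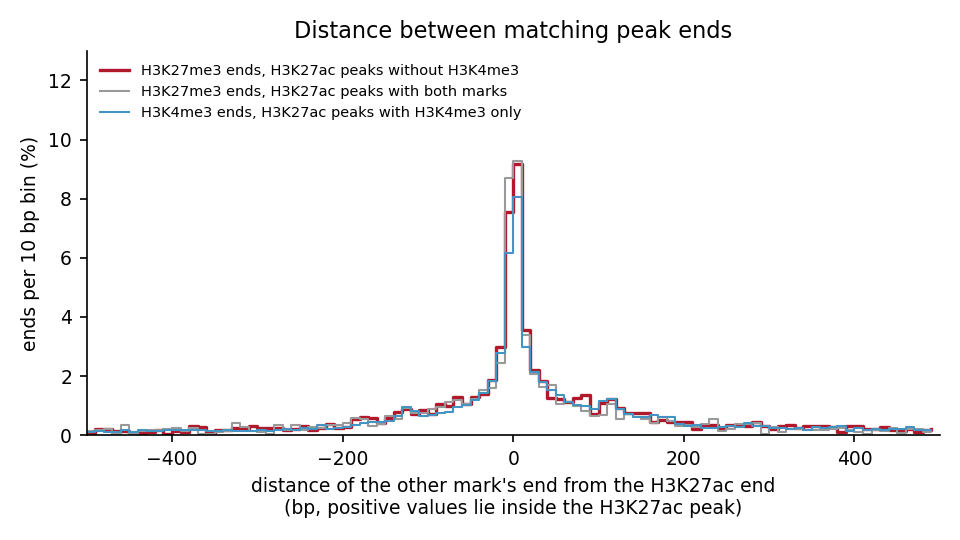
Distance between matching ends of overlapping peaks in bp (positive values lie inside the H3K27ac peak), in % of all ends per 10 bp bin. The line for the members and those for H3K27ac peaks with both marks and with H3K4me3 only all have a narrow maximum at 0, where bins of the members reach 9.16%.

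Both ends lay within 25 bp of each other in 215 pairs (8.72%). These were narrow peaks, with a median H3K27ac width of 301 bp and a median H3K27me3 width of 304 bp, close to the narrowest peaks of the lists at 251 and 233 bp. Their median fold enrichment, the linear ratio over local background that the peak caller gives as the mean over a peak, was 2.81 for H3K27ac and 2.94 for H3K27me3. In the 1418 pairs without a coincident end the medians were 2.63 and 2.76. The pairs with the closest ends were thus slightly more enriched for both marks, but also narrower than these 1418, whose median H3K27ac width was 838.5 bp. In the narrowest 614 members, of 251 to 341 bp, the medians were 2.79 and 2.92. Close ends and small width cannot be told apart here.

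The lengths shared by both marks clustered near the narrowest peaks as well. An overlap of 251 to 300 bp was found in 558 members (22.7%), of 51 to 100 bp in 74 and of 1 to 50 bp in 73. On the other side of the threshold, 9 H3K27ac peaks without H3K4me3 had an H3K27me3 peak at a gap of up to 50 bp and 11 at a gap of 51 to 100 bp. Small overlaps therefore outnumbered small gaps. The least overlapped members lay on chromosome 5 at 19008846 to 19009144, with 1 bp in common, on chromosome 2 at 56359889 to 56360710 with 2 bp, and on chromosome 24 at 3030982 to 3032128 with 3 bp. The H3K27ac peaks that just failed the rule lay on chromosome 2 at 39803246 to 39803512 and at 49336959 to 49337741 and on chromosome 3 at 26117306 to 26118167, each with a gap of 4 bp. The first of these was 267 bp wide, beside an H3K27me3 peak with a fold enrichment of 3.90.

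In width and enrichment the members were close to H3K27ac peaks with neither other mark. Their median width was 687.5 bp (quartiles 341 and 1149), against 721.5 bp for peaks with neither mark, 999 bp with H3K4me3 only and 760 bp with both. Peaks narrower than 500 bp made up 39.9% of the members (38.0 to 41.9), and 36.0% of all autosomal H3K27ac peaks. The median H3K27ac fold enrichment was 2.67 in the members (quartiles 2.45 and 2.99, range 1.38 to 6.05), 2.62 in peaks with neither mark, 2.83 with H3K4me3 only and 2.78 with both. In 599 members (24.4%, 22.7 to 26.1) the value was 3 or more, as in 24.9% of all autosomal H3K27ac peaks, 21.1% of those with neither mark and 34.5% of those with both. Values of 4 or more were seen in 50 members (2.04%, 1.51 to 2.68), in 2.98% of all and in 1.93% of peaks with neither mark. A q-value of at most 0.01, stricter than the 0.1 of the lists, was met by 1270 members (51.7%, 49.7 to 53.7), by 54.0% of all and by 49.9% of peaks with neither mark. The share of members with a value of 3 or more was near that of all H3K27ac peaks, and the shares at the other thresholds of enrichment lay below it.

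Among H3K27ac peaks that lacked H3K4me3, overlap with H3K27me3 was less frequent in the widest than in the narrowest. All peaks without H3K4me3 were cut into 10 sets by width. In the narrowest set, of 251 to 279 bp, 268 of 3428 were members (7.82%, 6.94 to 8.77). In a set of wide peaks, of 1097 to 1364 bp, 258 of 3427 were (7.53%, 6.67 to 8.46), and in the widest, of 1991 to 21843 bp, 206 (6.01%, 5.24 to 6.86). The widest set held the lowest share of the 10, followed by the set of 1364 to 1991 bp with 6.22%. Peaks that met H3K4me3 were left out of these sets, and the reason for the lower shares was not tested.

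The enrichment of one mark was related to that of the other. Across the 2466 pairs, Spearman's rho between the fold enrichments was 0.386 and Pearson's r was 0.333. The pairs come from the same libraries, and whether both marks share a background is not known. Of 5 sets of pairs ordered by H3K27ac fold enrichment, the lowest covered 1.38 to 2.39. There the median H3K27me3 fold enrichment was 2.57, and in the highest set, of 3.07 to 6.05, it was 2.99. A positive rho was also found within each of the 4 sets by H3K27ac width, from 0.418 in the narrowest to 0.306 in the widest. It was 0.516 in the 215 pairs with both ends within 25 bp and 0.369 in the others. For comparison, rho was 0.284 over 1616 pairs of H3K27ac peaks with both marks, and 0.412 between H3K27ac and H3K4me3 over 7715 pairs of peaks with H3K4me3 only. In the 10 pairs with an H3K27me3 peak of at least 5 kb the sign was the opposite, with a rho of -0.648 and an r of -0.696. Pairs with a higher fold enrichment of one mark thus tended, across all 2466, to have a higher one of the other, with a wide scatter.

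**Figure D4:**
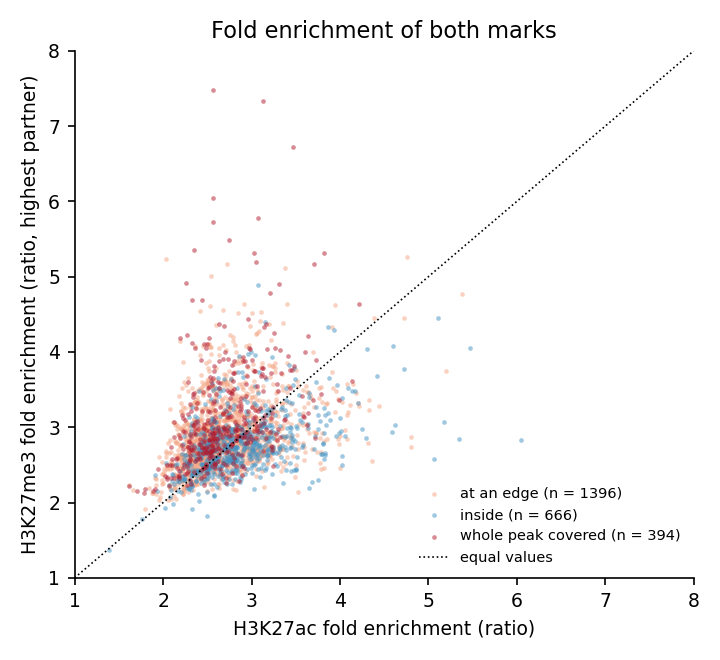
Fold enrichment of H3K27ac (x axis) against that of the most enriched overlapping H3K27me3 peak (y axis), both linear ratios, 1 point per H3K27ac peak and coloured by the place of the overlap. Most points lie between 2 and 4 on both axes, and the points with an H3K27me3 value above 6 are wholly covered peaks.

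A fold enrichment of at least 4 was rare for each mark and for both together. The H3K27me3 value exceeded the H3K27ac value in 1519 of 2466 pairs (61.6%), though ratios of different antibodies cannot be compared as amounts. Both values reached at least 3 in 288 pairs (11.7%) and at least 4 in 9. Taken singly, the H3K27ac value was at least 4 in 50 pairs and the H3K27me3 value in 91. Whether the 9 differ from the number that these counts alone would give was not tested. An H3K27ac value of at least 4 was also rare in the whole list, at 2.98% of all autosomal H3K27ac peaks against 2.04% of the members. The share of all autosomal H3K27me3 peaks at these values was not computed, so that rarity is not shown to be particular to the members. The member with the highest lower value lay on chromosome 2 at 39741724 to 39742060 and was 337 bp wide. Its H3K27ac fold enrichment was 5.38 and that of its H3K27me3 peak, of 250 bp, was 4.77, with 249 bp in common. It was followed by chromosome 17 at 10334403 to 10334670, with 4.76 and 5.26, and chromosome 11 at 19661317 to 19661721, with 5.11 and 4.45. The next were chromosome 5 at 19314876 to 19315143, with 4.73 and 4.44, and chromosome 4 at 39533349 to 39533614, with 4.38 and 4.45. All 5 were at most 405 bp wide and overlapped over 73.9% to 97.4% of their width, and in all 5 the higher-coordinate ends of both peaks lay within 10 bp of each other.

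The longest overlaps were found in peaks of moderate enrichment. On chromosome 12 at 13568400 to 13570500, 2091 of 2101 bp were overlapped (99.5%), with fold enrichments of 2.38 for H3K27ac and 2.34 for H3K27me3. On chromosome 9 at 14848020 to 14850165, an H3K27me3 peak of 1919 bp lay inside a member of 2146 bp (89.4%). The member from 47116620 to 47119119 on chromosome 4 shared 1881 bp (75.2%). That from 1130026 to 1133974 on chromosome 15 shared 1864 bp (47.2%), and that from 72949384 to 72951897 on chromosome 3 shared 1841 bp (73.2%). In these 5 members the H3K27ac fold enrichment ran from 2.38 to 3.28 and that of H3K27me3 from 2.34 to 2.75. The member on chromosome 15 had an H3K4me3 peak at a gap of 404 bp, and that on chromosome 3 had none within 10 kb.

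The widest members carried H3K27me3 over a small inside part. The widest measured 15743 bp, on chromosome 18 at 3079969 to 3095711, with a fold enrichment of 3.29, and 321 bp of it (2.04%) were overlapped. The next, from 27970371 to 27980032 on chromosome 7, had 281 of its 9662 bp overlapped. Chromosome 21 held a pair of them, from 2947992 to 2957081 (261 of 9090 bp) and from 142939 to 151314 (337 of 8376 bp). The last spanned 7515185 to 7523263 on chromosome 17 (931 of 8079 bp). All 5 overlaps were inside. On chromosome 7, the H3K27me3 peak ended at 27980013, close to the end of the H3K27ac peak. The lowest H3K27me3 fold enrichment among these 5 was 2.49, in the member on chromosome 18. A member of this kind is a long acetylated region with a short H3K27me3 call in it.

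The H3K27me3 partners of the members had a median width of 455 bp (quartiles 290 and 904) and a median fold enrichment of 2.80. The 15887 autosomal H3K27me3 peaks without H3K27ac had medians of 479 bp and 2.85. An H3K4me3 peak elsewhere on the H3K27me3 peak was found for 56 of 2461 partners (2.28%), against 24.5% of all autosomal H3K27me3 peaks. This low share is in part set by the rule, which admits no H3K4me3 on the acetylated part. At least 5 kb was measured for 10 partners (0.406%, 0.195 to 0.746), against 1.10% of all autosomal H3K27me3 peaks. Among partners of H3K27ac peaks with both marks the share was 2.51% (1.80 to 3.40). How far the rule sets the low share among the partners of members was not tested.

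The members on these 10 long H3K27me3 peaks were picked out after their values had been seen. In 9 of them the H3K27ac peak lay wholly within H3K27me3. The longest partner was an H3K27me3 peak of 74129 bp on chromosome 27 with a fold enrichment of 6.04. Its member, at 6286845 to 6287307, was 463 bp wide with an H3K27ac fold enrichment of 2.56, and lay at the very end of the H3K27me3 peak, which stopped at 6287457. On chromosome 13, a member of 634 bp at 16062601 to 16063234 likewise lay close to the end, at 16063272, of an H3K27me3 peak of 14790 bp. A member of 801 bp on chromosome 9 at 12034167 to 12034967 lay more than 1 kb from both ends of an H3K27me3 peak of 12741 bp with a fold enrichment of 5.73. An H3K4me3 peak lay at a gap of 290 bp from it.

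H3K27me3 peaks with more than 1 member were those on chromosome 1 at 64532380 to 64535699, chromosome 2 at 18095608 to 18098142, chromosome 3 at 107013956 to 107015527, chromosome 6 at 23132586 to 23134505 and chromosome 9 at 5410264 to 5411885, each with 2. On chromosome 2, both members lay wholly within H3K27me3 and near its ends, at 18095612 to 18095876 and 18097806 to 18098073, and were 265 and 268 bp wide. On chromosomes 3 and 9, both members overlapped at an edge, so that H3K27me3 bridged the interval between neighbouring H3K27ac peaks. On chromosome 1 both also overlapped at an edge, with another H3K27ac peak, which was not a member, between them. On chromosome 6, 1 member was wholly covered and the other overlapped at an edge.

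The median distance to H3K4me3 was similar for the members and for H3K27ac peaks with neither mark. The median gap to the nearest H3K4me3 peak was 11542.5 bp, against 11298.5 bp. An H3K4me3 peak lay within 10 kb of 1128 members (45.9%, 43.9 to 47.9), and of 45.9% of all autosomal H3K27ac peaks without H3K4me3. Within 1 kb it lay for 75 members (3.05%, 2.41 to 3.81), and for 2.40% of those peaks. For H3K27ac peaks with neither mark this share was 2.34% (2.18 to 2.52), slightly lower than in the members. A gap of at most 100 bp was found for 9 members. The share at this gap among all H3K27ac peaks without H3K4me3 was not computed.

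The members lay in sparser H3K27ac than peaks with neither mark. The median gap to the nearest other H3K27ac peak was 6106 bp in the members, 3635 bp in peaks with neither mark, 3830 bp with H3K4me3 only and 6367 bp with both marks. Within 50 kb of the midpoint, the members had a median of 5 other H3K27ac peaks, against 7 for peaks with neither mark and 5 for those with both. Both classes with H3K27me3 thus had fewer H3K27ac neighbours than both classes without. Both also made up a larger share of H3K27ac peaks on chromosomes 1 to 5 than on chromosomes 13 to 33. H3K27ac peaks were sparser there, at 35.9 against 71.1 per Mb. The gaps were not compared within chromosomes, so that the part of chromosome in them was not tested.

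Most members had no other member beside them, which is in part set by their share of 5.66% of the autosomal H3K27ac peaks. Of 193 members (7.86%, 6.82 to 8.99) the nearest other H3K27ac peak was a member as well. The same held for 5.35% of all autosomal H3K27ac peaks and for 9.19% (7.82 to 10.7) of those with both other marks. The nearest peak carried neither mark for 1753 members (71.4%), H3K4me3 only for 362 (14.7%) and both marks for 148 (6.03%). Of all autosomal H3K27ac peaks, 73.3% carried neither mark, 17.4% H3K4me3 only and 3.68% both marks. The shares for neither mark and for H3K4me3 only were thus near those of the whole list. Runs of successive H3K27ac peaks that were all members numbered 152 with 2, 17 with 3 and 1 with 4 members, and 2097 members stood alone. The median distance between successive members was 225059 bp. The run of 4, picked out after it had been seen, lay on chromosome 2 from 17767579 to 17780568, where the members were 473, 279, 2178 and 923 bp wide. H3K27me3 overlapped 100%, 86.4%, 83.0% and 9.43% of them, with fold enrichments of 3.04, 2.82, 4.23 and 2.57.

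The share of members among H3K27ac peaks was higher on large than on small chromosomes. It was 6.46% on chromosomes 1 to 5, 5.29% (4.86 to 5.74) on chromosomes 6 to 12 and 4.45% (4.08 to 4.84) on chromosomes 13 to 33. Per Mb of the span covered by peaks, the order was the opposite, with 2.32, 2.81 and 3.16 members. Peaks with both other marks likewise made up a larger share of H3K27ac peaks on chromosomes 1 to 5, at 4.15%, 3.22% and 3.20%. H3K27ac peaks were denser on small chromosomes, at 35.9, 53.2 and 71.1 per Mb, while H3K27me3 peaks numbered 19.7, 19.5 and 26.4 per Mb. Of the H3K27me3 peaks, 11.8% on chromosomes 1 to 5 and 14.4% on chromosomes 6 to 12 were partners of members, and the share on chromosomes 13 to 33 lay between these values. Across the 28 autosomes with at least 200 H3K27ac peaks, rho between the share of members and the span was 0.683, and that with H3K27ac density was -0.688, so that span and density cannot be told apart.

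Among single chromosomes, the share was highest on chromosome 2, with 365 of 4996 H3K27ac peaks (7.31%, 6.60 to 8.06), and among those with at least 200 H3K27ac peaks it was lowest on chromosome 25, with 8 of 226 (3.54%, 1.54 to 6.86). Chromosomes 27 and 33, which had the most H3K27me3 peaks per Mb at 57.6 and 53.5, held 22 and 14 members (4.79% and 5.56%). Only 4.73% and 3.35% of their H3K27me3 peaks were partners of members. Chromosome 31 had 249 H3K27me3 peaks and 0 members among 62 H3K27ac peaks, which allows a share of up to 4.84% by the limit of 3 counts and up to 5.78% by the exact interval drawn in the plot by chromosome, so that a share equal to that of all autosomes is within the exact interval.

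**Figure D5:**
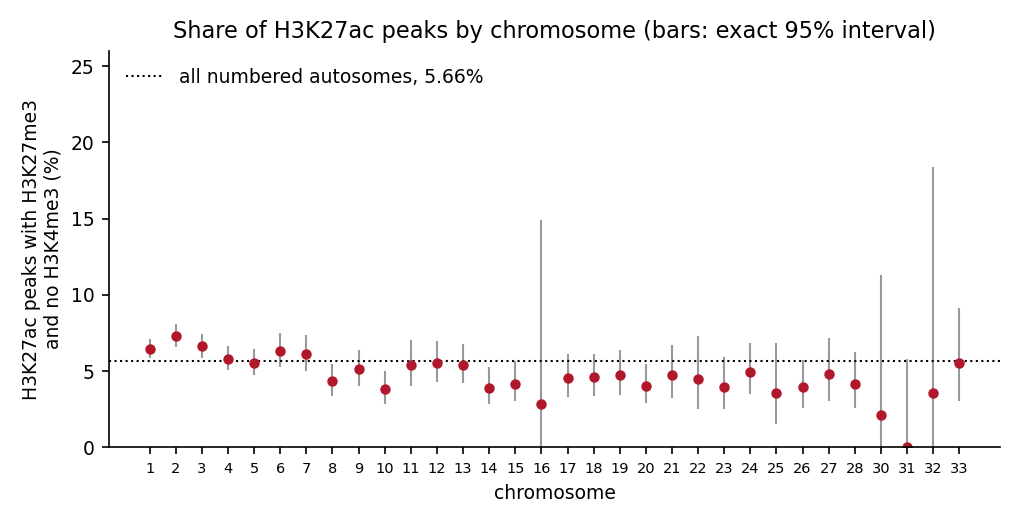
Share of H3K27ac peaks that overlapped H3K27me3 and no H3K4me3, in %, for each numbered autosome (points, with exact 95% intervals as bars) and for all of them (dotted line at 5.66%). Chromosomes 1 to 4, 6 and 7 lie above the line and chromosomes 13 to 28 below it, and the intervals of chromosomes 16, 30, 31 and 32 are wide because each has at most 62 H3K27ac peaks.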

How the data were processed

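Chromatin from dissected OEP tissue was immunoprecipitated with antibodies against H3K27ac, H3K4me3 and H3K27me3, 1 library each, by a protocol for small cell numbers. Per the methods of the study and the processing notes of the submitters, the authors trimmed reads with Trim Galore, aligned them with BWA to GalGal6 and ran MACS2 in its broad mode, keeping peaks with a false discovery rate below 0.1. There is 1 list per library, and whether the input library served as control is not given in the sources used here. The deposited lists give the fold enrichment of each peak as a linear ratio, and −log10 of its p-value and q-value, all as means over the peak. The deposited score, derived from the q-value, was not used. The lists hold no reads, so that depth and its effect on peak number and width are unknown.

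Overlaps were counted from 1 bp with Python 3.11.15, numpy 2.4.6 and pandas 2.3.3, and the number of members was checked with bedtools 2.31.1. The calculation of place, length and gap was tested on simulated data. Shares carry exact Clopper-Pearson 95% intervals from scipy 1.17.1, which treat peaks as independent. Coordinates are 1-based positions on GalGal6. The span of a chromosome is the largest peak end on it. Named regions were the 5 members with the longest overlap, the 5 with the highest lower value of both fold enrichments, the 5 widest, the 3 with the smallest overlap, the 3 non-members without H3K4me3 and with the smallest gap to H3K27me3, and the H3K27me3 peaks with most members (3 by rule, with the 2 others added because they tied). The members, the rule and the alternatives were chosen with earlier results of these data known. An annotation or sequence of GalGal6 was not used here, so that gene and sequence context is not given.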

Additional observations from a re-analysis of the deposited data

Results flagged for a closer look

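Outside the numbered autosomes, which the comparisons above did not use, 129 of 2010 H3K27ac peaks overlapped an H3K27me3 peak and no H3K4me3 peak (6.42%, exact interval 5.39 to 7.58). They were picked out only because their number, in data outside the comparisons, exceeds the 3 peaks that a count of 0 allows. The share on the numbered autosomes, 5.66%, lies within the interval of 5.39 to 7.58. The share outside them is therefore not set apart from that of the autosomes. Chromosome Z held 122 of them among 1932 H3K27ac peaks (6.31%, 5.27 to 7.49), chromosome W 1 among 32 and unplaced sequences 6 among 46 (exact interval 4.94% to 26.3%).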

How the results depend on the processing

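Of 100 values recomputed under 10 alternatives, 46 moved beyond the counting interval of the main value or, for the number of members, by more than 1.5 times. Requiring no H3K4me3 peak within 1 kb, merging peaks within 1 kb and using all sequences moved 0 values. No H3K27ac peaks on the autosomes lay closer together than 1006 bp, so that merging could act on the other lists only. Lists shrink under stricter thresholds by construction, and otherwise the cause was not tested. Where the H3K4me3 list was cut as well, H3K27ac peaks that overlap a weaker H3K4me3 peak were admitted. Among the 2466 pairs of the main members, both marks met a q-value of at most 0.01 in 605 and a fold enrichment of at least 4 in 9. The sets of 793 and 18 below therefore hold peaks outside the main set. When every list was cut at a q-value of 0.01, there were 793 members (3.38% of the H3K27ac peaks then left), with a median share overlapped of 80.4%, 51.7% at an edge, 21.1% wholly covered, a median width of 456 bp, median fold enrichments of 3.01 for H3K27ac and 3.23 for H3K27me3, and a median gap to H3K4me3 of 29861 bp. With a fold enrichment of at least 4 in all lists, H3K4me3 included, there were 18 members (1.39%), with 94.0% overlapped, 33.3% each at an edge, inside and wholly covered, 309.5 bp, 4.67 and 4.45, and a gap of 192936 bp. With a fold enrichment of at least 3 for H3K27ac and H3K27me3 there were 288 (2.67%), with 83.2% overlapped, 48.6% at an edge, 29.2% inside, 22.2% wholly covered, 401.5 bp, and 3.29 and 3.36. Requiring 50% or more of the shorter peak to be overlapped gave 4.82% of H3K27ac peaks, 77.4% overlapped, 49.3% at an edge, 31.8% inside, 18.8% wholly covered and an H3K27ac fold enrichment of 2.70. An overlap of at least 100 bp gave 5.32%, 70.1% overlapped and 54.1% at an edge. The edge was the most frequent place in all alternatives but that of a fold enrichment of at least 4. The last 2 alternatives were chosen after seeing the data. Peaks at least 500 bp wide gave 825 members (2.97%), with 74.6% overlapped, 1033 bp, and 2.58 and 2.71. Without pairs whose ends coincided within 25 bp at both ends, the share was 5.16%, with 57.8% overlapped and a median width of 748 bp. Planned analyses of gene and sequence context were not run. No paired analysis was possible because each mark has 1 library. The unknown depth limits any comparison of peak number, width or enrichment between marks.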
